A study of Mus musculus with 16 samples.

Results

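The 10 genes described here encode transcription factors that give somatosensory neurons their identity. They are Prdm12, Runx1, Runx3, Pou4f1, Isl1, Tlx3, Prrxl1, Shox2, Etv1 and Maf, chosen by symbol, and all 10 were found among the 53465 genes of the table. Their mRNA and their ribosome footprints were measured in dorsal root ganglia (DRG, levels L3 to L5) and in the dorsal part of the matching lumbar spinal cord of female C57BL/6J mice. The mice were 8 weeks old at surgery and received either a bilateral spared nerve injury (SNI) or a bilateral sham operation. In SNI, 2 branches of the sciatic nerve, the tibial and the common peroneal, are tied and cut and the sural branch is left whole. The sham operation left every branch untouched. Tissue was taken 30 days after surgery, when cut and spared afferents share the same ganglia. Each lysate pooled 10 mice and was split into a poly(A)+ mRNA library and a footprint library, which gave 8 groups of 2 pools and 16 libraries.

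Somatosensory neurons of the DRG arise from a common progenitor and are sorted by transcription factors into nociceptors, which detect harmful stimuli, low-threshold mechanoreceptors, which detect touch, and proprioceptors, which sense muscle stretch. Pou4f1 (Brn3a) and Isl1, a POU-homeodomain and a LIM-homeodomain protein, are made across the sensory lineage and close the neurogenic programme. Prdm12, a PR-domain zinc finger protein, is required for nociceptors to form, and people without it feel no pain from birth. Runx1 directs the non-peptidergic nociceptors, and Tlx3 and Prrxl1 (DRG11), a pair of homeodomain proteins, act in nociceptors and also in the dorsal horn neurons that receive their input. Runx3 and Etv1 (Er81), a Runt and an ETS protein, are known from proprioceptors. Shox2 and Maf, a homeodomain and a basic leucine zipper protein, are known from low-threshold mechanoreceptors.

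The members lie apart in the mouse genome (GRCm38, GENCODE annotation). Prdm12 is at chr2:31640037-31655795, Shox2 at chr3:66971727-66981771, Runx3 at chr4:135120652-135177990, Maf at chr8:115682942-115707794, Tlx3 at chr11:33200752-33203589, Etv1 at chr12:38779380-38870484, Isl1 at chr13:116298281-116309689, Prrxl1 at chr14:32599407-32649246, Pou4f1 at chr14:104461676-104467999 and Runx1 at chr16:92601466-92826149. Etv1 has the longest exonic sequence, 13296 bases of which the longest coding sequence takes 10.8%, whereas in Tlx3 the coding sequence takes 56.9% of 1533 bases. Reads were sequenced without strand information, so reads of an antisense neighbour cannot be told from those of the member. Annotated exons on the opposite strand share 440 bases with Maf (Gm15655), 200 with Prdm12 (Gm13425), 153 with Shox2 (Rsrc1) and 106 with Runx1 (Gm26626).

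Since the mRNA of most members moved in one direction in the DRG after injury, the 250 bases before their RefSeq transcription starts were searched for the binding words of factors in the same family and of injury-activated factors. RefSeq (GRCm38.p6) gave 12 such windows for 9 members and none for Maf. The 2 windows shown are of Etv1, the member with the largest mRNA change after injury, and of Runx3, the member in which a word recurred. Each of these members has another window, at chr12:38783461-38783710 for Etv1 and chr4:135152295-135152544 for Runx3. Those windows held no RUNX word, so the windows shown are the ones with a match. Capitals mark the RUNX word TGTGGT or its complement ACCACA, and each sequence is written 5′ to 3′ on the plus strand, at chr12:38779832-38780081 for Etv1 and at chr4:135120395-135120644 for Runx3.
Etv1: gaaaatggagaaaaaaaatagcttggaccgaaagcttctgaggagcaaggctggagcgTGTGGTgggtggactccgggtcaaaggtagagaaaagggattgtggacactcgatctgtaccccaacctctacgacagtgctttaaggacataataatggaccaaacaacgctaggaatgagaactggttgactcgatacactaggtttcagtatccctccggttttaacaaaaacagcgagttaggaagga
Runx3: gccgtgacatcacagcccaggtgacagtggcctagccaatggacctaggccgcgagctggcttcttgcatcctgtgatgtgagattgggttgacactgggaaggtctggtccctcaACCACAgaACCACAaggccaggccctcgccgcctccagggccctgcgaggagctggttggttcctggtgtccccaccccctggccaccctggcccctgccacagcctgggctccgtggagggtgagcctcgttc
The Etv1 window held the word at base -192 from the start and the Runx3 window held it at -134 and -126, in the opposite orientation. The Etv1 window lay inside the annotated span of Etv1 but overlapped no annotated exon. In the Runx3 window, 53 bases lie in an exon of Gm16225 on the other strand. A RUNX word stood in 3 of the 12 member windows (Etv1, Prrxl1 and Runx3), against 14.05% of the 32851 mouse promoters in the same table. Of the other words, searched on both strands, the MAF word TGCTGA was in 1 window (a second Etv1 start, base -25) against 16.08% of promoters, and the TATA word TATAAA was in 2 (Etv1 and Shox2) against 12.37%. None of the 12 windows held the AP-1 word TGANTCA (6.749% of promoters), the CRE word TGACGTCA (1.546%), the ETS word CCGGAAG (6.907%), the homeodomain word TAATTA (4.84%) or the POU octamer ATGCAAAT (1.601%). These matches describe letters in short windows, not binding.

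The mRNA libraries held about 18176500 to 28553100 reads in genes and the footprint libraries 6898060 to 21613500. Levels are given as counts-per-million (CPM) after TMM scaling within each assay. A change was called where the adjusted p of edgeR's quasi-likelihood test was under 0.05 over all genes with a mean of at least 32 reads in the 4 libraries of an assay that were compared. The 2 pools of a group differed little, with a common biological coefficient of variation of 0.0430 in DRG footprints. In DRG mRNA it was 0.00988, the lower bound of edgeR's estimate, which is a floor and not a measured spread. The DRG fit of footprints over mRNA gave the same 0.00988. Changes of a few percent could therefore pass the test. The tissue labels matched their markers. Of 22 nociceptor genes, 20 of the 21 tested were higher in sham DRG mRNA than in sham cord mRNA, and all 6 oligodendrocyte genes were lower. In the DRG, muscle genes were higher after SNI (8 of 10, summed level 85.2 to 87.3 CPM in sham and 182.7 to 183.0 in SNI pools) and oligodendrocyte genes were lower (4 of 4 tested, 34.0 to 36.3 against 6.92 to 8.22 CPM), so the surgery groups also differed in non-neuronal RNA, whose part in the results below was not tested.

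In sham DRG the members spanned a wide range of mRNA levels. Compared per kilobase of exon, Prdm12 was the most abundant at 94.1 ± 1.1 CPM per kb (SD, n = 2), above 96.4% of the 13137 protein-coding genes with at least 64 reads in the 2 pools, followed by Tlx3 at 87.8 ± 1.68. Pou4f1 (63.1 ± 1.14), Prrxl1 (45.9 ± 1.13), Isl1 (31.4 ± 0.0804) and Maf (21.3 ± 0.0760) came next. Runx1 (12.0 ± 0.325), Etv1 (10.7 ± 0.00295), Shox2 (9.22 ± 0.483) and Runx3 (3.33 ± 0.138) closed the order, with Runx3 above only 31.8% of genes. Each neighbouring pair in this order differed by more than the sum of its SDs. The pan-sensory factors and 3 of the 4 nociceptor factors thus stood above the factors of the touch and proprioceptive classes, with Runx1 below Maf. These are levels of a whole ganglion, in which the number of neurons that express a gene and its RNA per neuron cannot be told apart.

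Footprints per kilobase of coding sequence gave a similar ladder with a different middle. Prdm12 again led, with 239 ± 10.4 CPM per kb, and Runx3 was again lowest, with 5.50 ± 1.1. Pou4f1 (127 ± 2.14), Prrxl1 (125 ± 3.47) and Tlx3 (120 ± 2.80) came next, and Prrxl1 differed from either neighbour by less than the sum of their SDs. As a log2 ratio of footprints to mRNA, each per kilobase, Runx1 stood highest among the members in sham DRG (2.17 ± 0.0218, above 79.9% of 12381 genes) and Maf next (1.93 ± 0.0358). Shox2 (0.20 ± 0.122, above 10.3% of genes) and Tlx3 (0.45 ± 0.00603, above 15.3%) stood lowest. Exonic length enters this ratio and the order by mRNA per kilobase in opposite directions, so these orders are not independent. The longest coding sequence takes 11.8% of exonic bases in Runx1, 13.8% in Maf and 56.9% in Tlx3. Without lengths, the log2 ratio of CPM was highest in Prdm12 (0.17 ± 0.0797) and lowest in Etv1 (-2.04 ± 0.0417). On that scale Tlx3 (-0.36 ± 0.00643) stood above Runx1 (-0.91 ± 0.0223) and Maf (-0.93 ± 0.0354).

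All 10 members were more abundant in sham DRG than in sham cord, in mRNA and in footprints. Of 14706 genes tested for mRNA, 41.4% were higher and 42.3% lower in DRG, so a difference between these tissues is common. The largest was that of Prdm12, whose mRNA was 230 and 234 CPM in the sham DRG pools and 0.363 and 0.219 CPM in the sham cord pools. The cord values rest on 15 reads in all, and the ratio was 780 (95% counting interval 473 to 1395). Runx3 (log2 difference 6.67, SE 0.224, on 8 cord reads), Runx1 (5.85, SE 0.0692) and Isl1 (5.73, SE 0.0712) followed. In the cord Runx1 and Isl1 rested on 125 and 119 reads over the 2 sham libraries, and Prdm12 and Runx3 on 15 and 8. Since the read minimum was applied to both tissues together, Prdm12 and Runx3 could enter this test only through their DRG reads. Their higher mRNA calls thus follow from that minimum.

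The remaining members were present in both tissues. Pou4f1 was higher in DRG mRNA by 3.79 (SE 0.0379) on the log2 scale, Tlx3 by 3.33 (SE 0.0493), Prrxl1 by 2.79 (SE 0.0395), Shox2 by 2.41 (SE 0.0864) and Etv1 by 1.78 (SE 0.0379). Maf differed least, at 176 and 175 CPM in sham DRG and 91.5 and 87.7 CPM in sham cord, a log2 difference of 0.98 (SE 0.0319). All had adjusted p-values of at most 2.7e-26 by edgeR. Per kilobase, the cord order began with Maf (10.9 ± 0.329 CPM per kb), Tlx3 (8.80 ± 0.0997) and Prrxl1 (6.72 ± 0.0599). Prdm12 (0.118 ± 0.0410) and Runx3 (0.0335 ± 0.0269) were last. Of 30 related factors (other transcription factors and cofactors of sensory neuron development), 16 of the 27 tested were higher and 11 lower in DRG mRNA. Their median log2 difference was 0.41, against 3.56 for the members and -0.01 for all genes. The members were chosen as factors of sensory neurons, so their higher level in DRG follows from that choice and these medians are a description.

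In footprints the same 10 were higher in DRG, where 39.2% of 12729 genes were higher and 39.5% lower. The read minimum was applied to both tissues together. In the 2 sham cord libraries Runx3 had 2 footprint reads, Prdm12 20, Isl1 25, Runx1 29 and Shox2 39. With so few cord reads these members could enter the test only through their DRG reads. Their higher calls thus follow from the read minimum, and the count of 10 cannot be set against these shares. Prdm12 footprints were 269 and 253 CPM in sham DRG and 1.93 and 0.556 CPM in sham cord. Runx3 had 161 footprint reads in sham DRG and 2 in sham cord, a ratio of 59.4 with a counting interval of 16.2 to 495. Maf footprints differed least, 90.9 and 93.7 CPM in DRG and 71.2 and 75.7 CPM in cord, a log2 difference of 0.35 (SE 0.0527, edgeR adjusted p = 5.2e-08).

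Translation efficiency (TE), the footprint level over the mRNA level of the same lysate, differed between the tissues for 4 members. Of 12504 genes tested, 20.4% had a higher and 22.6% a lower TE in sham DRG than in sham cord. Etv1 had the higher TE in DRG, with log2 TE of -2.01 and -2.07 in sham DRG against -2.91 and -2.50 in sham cord (difference 0.64, SE 0.143, edgeR adjusted p = 5.3e-05). Maf had the lower TE in DRG, -0.95 and -0.90 against -0.36 and -0.21 (difference -0.61, SE 0.0641, adjusted p = 9.0e-19). Tlx3 was lower by 0.48 (SE 0.116, adjusted p = 2.3e-04), a call that was lost without spinal cord sham replicate 2, where the difference was -0.23. Prdm12 was lower by 1.87 (SE 0.501), but on 15 mRNA and 20 footprint reads in the cord, and without spinal cord sham replicate 1 the difference was -1.12 and no longer called.

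**Figure D1:**
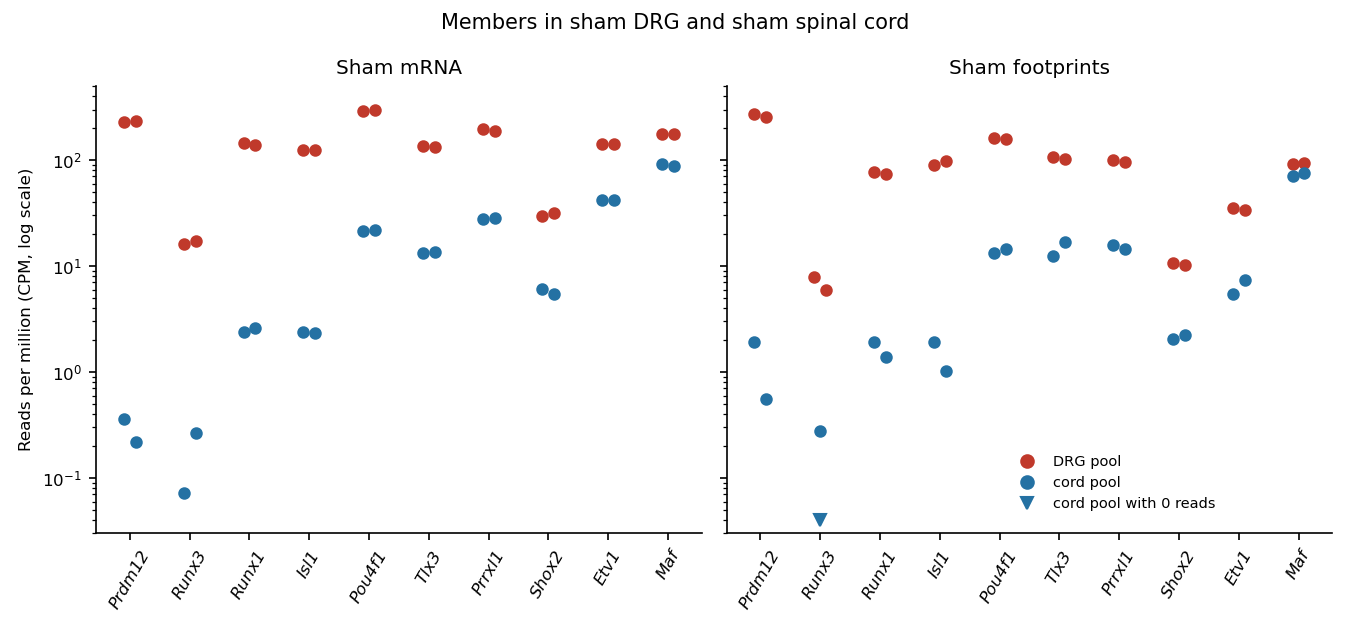
CPM on a log scale for each member in the 2 sham DRG pools (red) and the 2 sham cord pools (blue), mRNA on the left and footprints on the right. Every DRG pool lies above every cord pool, from Maf footprints (90.9 and 93.7 against 71.2 and 75.7 CPM) to Prdm12 mRNA at 230 and 234 against 0.363 and 0.219 CPM, and the triangle marks a cord pool without a Runx3 footprint.

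After SNI the mRNA of 9 of the 10 members fell in the DRG and none rose. Among all 14494 genes tested, 17% fell and 15.9% rose. The median log2 fold change of the members was -0.20, against 0.00 for all genes, and in each member both SNI pools lay below both sham pools, as they did in 32% of all genes tested. Most of these changes were small, with Etv1, Runx3 and Shox2 moving most. Here too, fewer neurons of a class and less RNA per neuron cannot be told apart.

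The pan-sensory factors changed unequally. Isl1 mRNA was 124 and 124 CPM in the sham pools and 108 and 103 CPM in the SNI pools, a log2 fold change of -0.23 (SE 0.0299, edgeR adjusted p = 1.3e-07). Pou4f1, the member with the most mRNA reads in the DRG, was 291 and 299 CPM in sham and 285 and 276 CPM in SNI pools, a change of -0.07 (SE 0.0240, adjusted p = 0.0215). The Pou4f1 groups are separated by less than the spread within each of them, and its call was lost without DRG sham replicate 2 (-0.05), without DRG SNI replicate 2 (-0.05) and when library sizes alone were used (-0.04).

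Among the nociceptor factors, Prdm12 moved most. Its mRNA was 230 and 234 CPM in sham and 200 and 200 CPM in SNI pools, a log2 fold change of -0.22 (SE 0.0243, adjusted p = 5.6e-09), and 9.66% of genes had a lower fold change. Prrxl1 fell from 195 and 188 CPM to 175 and 176 CPM (-0.13, SE 0.0258, adjusted p = 1.6e-04). Runx1 was 145 and 139 CPM in sham and 133 and 137 CPM in SNI pools (-0.08, SE 0.0282, adjusted p = 0.0293). The Runx1 call was lost without DRG sham replicate 1 (-0.05), without DRG SNI replicate 1 (-0.05) and with library sizes alone (-0.05). Tlx3 did not pass the test, at 136 and 133 CPM in sham and 130 and 129 CPM in SNI pools (-0.06, 95% interval -0.11 to 0.0013, adjusted p = 0.131).

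The factors of the touch and proprioceptive classes held the 3 largest changes. Etv1 mRNA stood at 143 CPM in both sham pools and at 92.2 and 90.5 CPM in the SNI pools, a log2 fold change of -0.64 (SE 0.0287, adjusted p = 1.2e-19), and only 0.573% of genes had a lower fold change. Runx3 fell from 16.1 and 17.1 CPM to 12.8 and 10.7 CPM (-0.49, SE 0.0888, adjusted p = 4.1e-05), and Shox2 from 29.4 and 31.6 CPM to 25.5 and 22.1 CPM (-0.35, SE 0.0629, adjusted p = 3.7e-05). For these lower-abundance genes the 2 SNI pools differed more, in proportion, than those of the abundant members. Maf, at 176 and 175 CPM in sham and 154 and 155 CPM in SNI pools, changed by -0.18 (SE 0.0258, adjusted p = 6.0e-07). Etv1 alone remained called when the biological coefficient of variation was fixed at 0.1, and DESeq2 called 7 of the 10 members lower, without Runx1 and Pou4f1. With library sizes alone the median of all genes moved by 0.03 and the split of all calls turned from 2308 higher and 2467 lower to 3072 higher and 1781 lower.

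**Figure D2:**
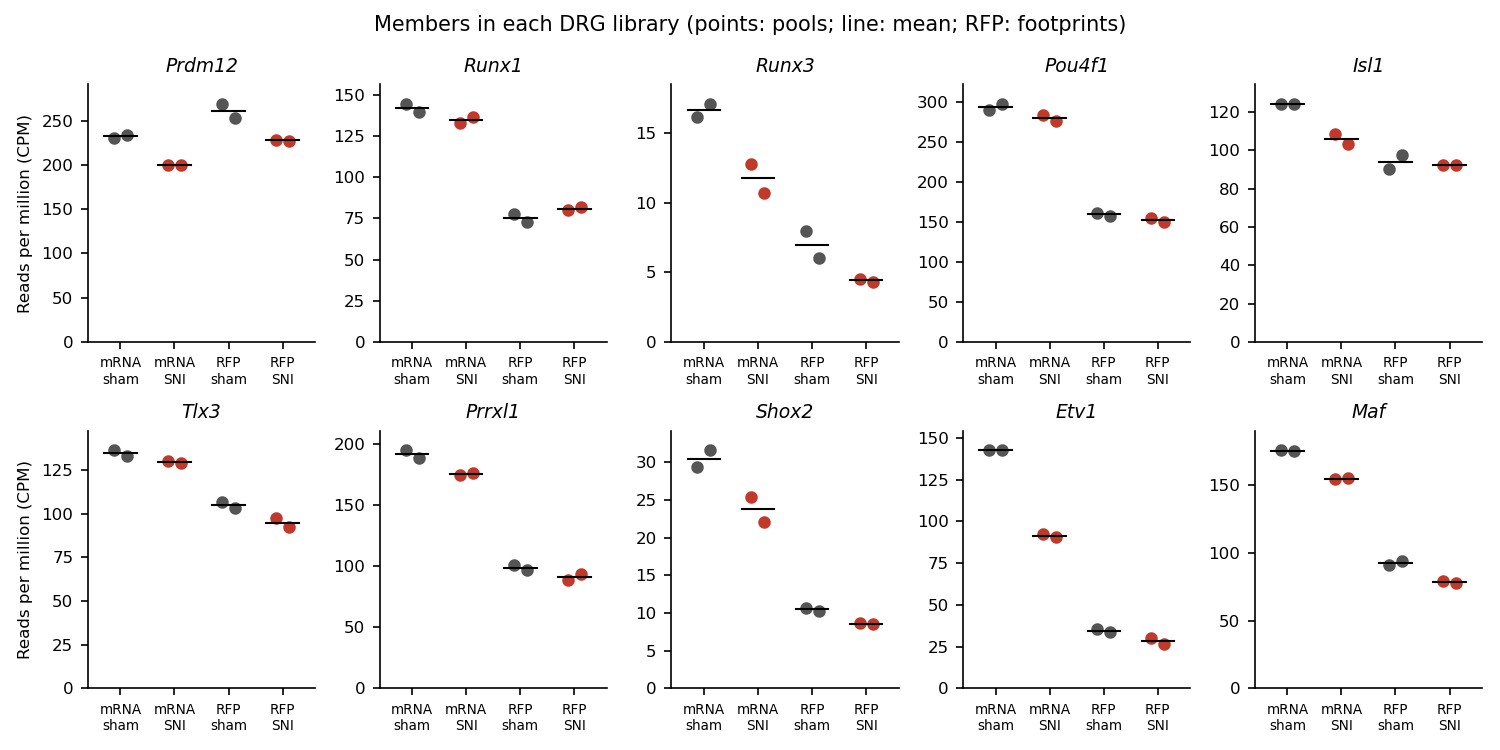
CPM of each member in the 8 DRG libraries, mRNA on the left and footprints (RFP) on the right of each panel, with sham in grey and SNI in red and each point 1 pool of mice. The mRNA points of both SNI pools lie below both sham points in every panel, most clearly for Etv1 (92.2 and 90.5 against 143 CPM).

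Genes of the neuron classes these factors belong to also moved. Of 12 mechanoreceptor and proprioceptor genes, 10 fell and 1 rose in DRG mRNA, with a median of -0.23. Pvalb, a calcium buffer of proprioceptors, fell by 0.74, the sodium channel gene Scn1a by 0.57 and Whrn, a scaffold protein of proprioceptors, by 0.45. Of 22 genes listed as nociceptor genes, 10 fell and 4 rose, with a median of -0.07. The list is not pure, since Th and Slc17a8 are known from low-threshold mechanoreceptors. Trpm8, the cold channel, fell by 0.32, Mrgprd, a receptor of non-peptidergic nociceptors, by 0.30 and Slc17a8 by 0.21, while Gfra3, a receptor for artemin, rose by 0.52, Th by 0.21 and the heat channel Trpv1 by 0.20. Of 10 pan-neuronal genes, 5 fell and 3 rose, with a median of -0.09.

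Related factors divided. Of the 30, 26 were tested in DRG mRNA, 12 fell and 4 rose, and their median was -0.07. Onecut1 fell by 0.61, Cux2 by 0.36 and Mafa by 0.35, and Sox11, a factor of immature and regrowing neurons, rose by 1.18 and Ehmt2 by 0.20. These lists were drawn up with earlier results of these data known, and their counts are a description.

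**Figure D3:**
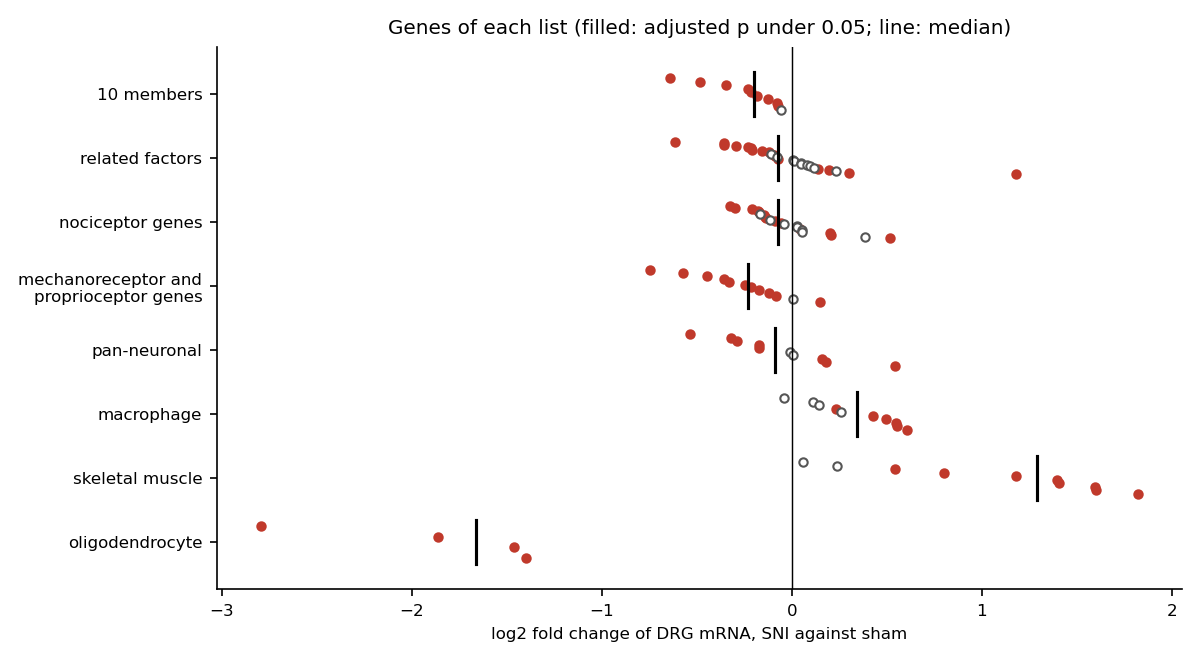
Log2 fold changes of DRG mRNA after SNI for the members and 7 other gene lists, with a point per gene (filled where called by edgeR) and a line at the median. The members lie between -0.64 and -0.06, near the mechanoreceptor and proprioceptor genes (median -0.23), while macrophage and muscle genes lie to the right and oligodendrocyte genes far to the left.

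Some members are also made by immune cells, Runx1 and Maf by macrophages and Runx3 by T cells. In DRG mRNA, 6 of 10 macrophage genes rose and none fell, with a summed level of 166 to 172 CPM in sham and 223 to 224 CPM in SNI pools. Runx1 and Maf moved the other way. Of 8 T cell genes, 3 had enough reads to test and none was called (edgeR, median log2 fold change 0.26), with a summed level of 8.79 to 9.58 CPM in sham and 11.4 to 11.7 CPM in SNI pools and reads of all 8 in every DRG mRNA library. The part of these cells in the members' values was not tested.

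In DRG footprints 5 members fell and none rose, among 13038 genes of which 8.28% fell and 8.4% rose. The median log2 fold change of the members was -0.17, and that of all genes 0.00. In 8 members both SNI pools lay below both sham pools, in Isl1 the groups overlapped, and in Runx1 the SNI pools lay above. Of all genes tested, both SNI pools lay below both sham pools in 26.3% and above them in 26.8%. The pools of a group varied more in footprints than in mRNA.

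The factors that fell in footprints were nociceptor factors (Prdm12 and Tlx3) and factors of the touch and proprioceptive classes (Maf, Etv1 and Runx3). Prdm12 footprints were 269 and 253 CPM in sham and 228 and 227 CPM in SNI pools (-0.19, SE 0.0375, edgeR adjusted p = 2.0e-05). Maf fell from 90.9 and 93.7 CPM to 79.1 and 78.1 CPM (-0.24, SE 0.0466, adjusted p = 3.3e-05), and Etv1 from 35.3 and 33.9 CPM to 30.2 and 26.5 CPM (-0.30, SE 0.0724, adjusted p = 9.1e-04). Runx3, the rarest member, was 7.97 and 5.99 CPM in sham and 4.48 and 4.33 CPM in SNI pools (-0.59, SE 0.171, adjusted p = 0.00836), and Tlx3 fell from 107 and 103 CPM to 97.4 and 92.3 CPM (-0.14, SE 0.0418, adjusted p = 0.00859). Without DRG SNI replicate 2, Runx3 (-0.55), Tlx3 (-0.10) and Etv1 (-0.18) were no longer called, and without DRG sham replicate 1 Runx3 was not (-0.45). DESeq2 called Prdm12 and Maf only.

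The other members did not pass the test in footprints. Runx1 was 77.6 and 73.1 CPM in sham and 80.0 and 81.7 CPM in SNI pools (0.11, adjusted p = 0.104), and was called higher without DRG sham replicate 1 (0.15), with the replicate block (0.12) and with library sizes alone (0.14). Isl1 was 90.4 and 97.4 CPM in sham and 92.4 and 92.3 CPM in SNI pools (-0.03, 95% interval -0.12 to 0.05). Pou4f1 was 162 and 158 CPM in sham and 156 and 150 CPM in SNI pools (-0.06), Prrxl1 101 and 96.7 against 88.8 and 93.6 CPM (-0.10), and Shox2 10.7 and 10.2 against 8.72 and 8.48 CPM (-0.28, 95% interval -0.54 to -0.02, adjusted p = 0.15). Only Runx1 among the members had a fold change above 0.

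TE in the DRG was higher after SNI for 3 members and lower for none. Of 12710 genes tested, 4.22% had a higher and 3.21% a lower TE after SNI. The 3 were Etv1, Isl1 and Runx1. Their mRNA was lower after SNI, as in members without a TE call, and mRNA is the denominator of TE. The median of the members was 0.02 and that of all genes 0.00.

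The TE of Etv1 moved most. Its log2 TE was -2.01 and -2.07 in the sham and -1.61 and -1.77 in the SNI lysates, a difference of 0.35 (SE 0.0739, edgeR adjusted p = 2.1e-04), and 96.7% of genes had a smaller difference. Per kilobase, its footprint to mRNA ratio moved from above 39.4% to above 54.4% of genes. Thus the fall of Etv1 footprints (0.30) was smaller than that of its mRNA (0.64). Isl1 TE was -0.46 and -0.35 in sham and -0.23 and -0.16 in SNI lysates (0.20, SE 0.0527, adjusted p = 0.00395), and Runx1 TE was -0.90 and -0.93 in sham and -0.73 and -0.75 in SNI lysates (0.18, SE 0.0549, adjusted p = 0.0190). In these 3 genes the SNI lysates lay above the sham lysates without overlap, as they did in 24.6% of all genes tested.

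These 3 calls rested on few libraries. Runx1 was not called when any 1 of the 4 lysates was left out (0.16 to 0.19). Isl1 was not called without DRG sham replicate 1 (0.16) or DRG SNI replicate 2 (0.16), nor Etv1 without DRG sham replicate 2 (0.31) or DRG SNI replicate 1 (0.28). DESeq2 and limma on the deposited ratios called none of the members. Macrophage genes were higher in DRG footprints as well (8 of 9 tested, summed level 263 to 267 CPM in sham and 357 to 365 CPM in SNI pools), and their part in the Runx1 ratio was not tested.

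The TE of the other 7 members did not pass the test. Prdm12 was 0.23 and 0.11 in sham and 0.19 and 0.19 in SNI lysates (0.03, 95% interval -0.05 to 0.11). Pou4f1 (0.02, interval -0.07 to 0.11) and Prrxl1 (0.02, interval -0.08 to 0.12) were bounded about as closely. For Runx3 (-0.06, interval -0.46 to 0.33) and Shox2 (0.12, interval -0.16 to 0.41) the footprint reads allowed a wide range. Tlx3 (-0.09, adjusted p = 0.334) and Maf (-0.06, adjusted p = 0.637) had SNI lysates below sham without passing the test, an order found in 22.9% of all genes tested. Of 22 nociceptor genes 4 had a higher TE after SNI, led by Scn9a (0.18), Mrgprd (0.18) and Scn10a (0.13), and of 12 mechanoreceptor and proprioceptor genes 3 were higher, Scn1a (0.27), Pvalb (0.18) and Spp1 (0.16), and 1 lower, Slc17a7 (-0.20). Of the 26 related factors tested, 1 was called, Ebf1 (0.20).

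**Figure D4:**
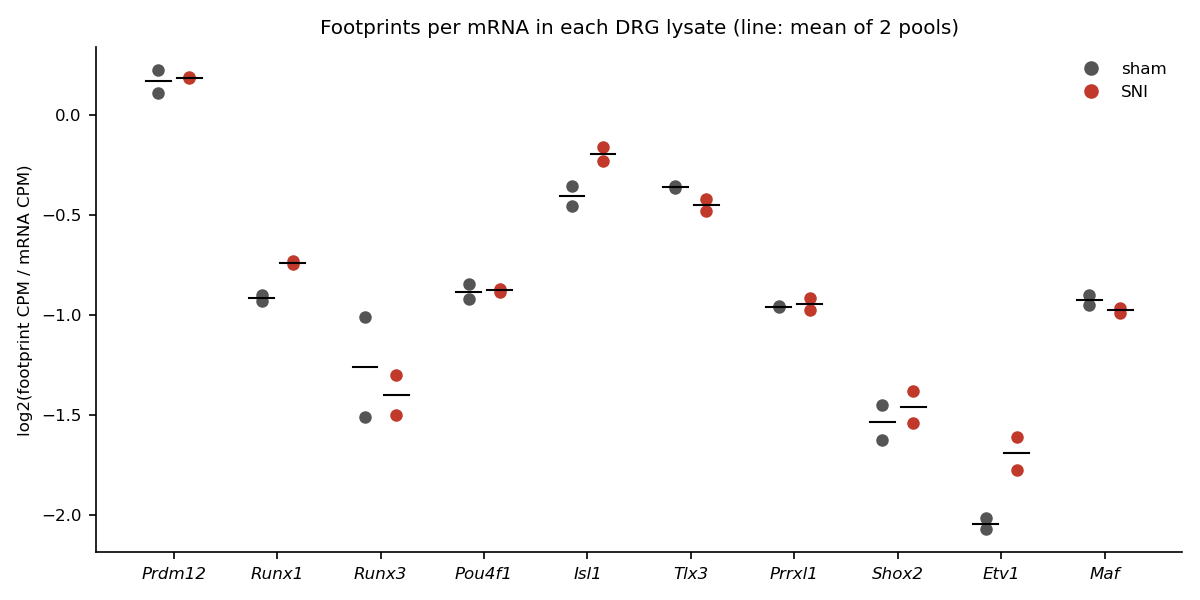
Log2 ratio of footprint to mRNA CPM in each DRG lysate (sham grey, SNI red, line at the mean of 2 pools). The SNI lysates lie above the sham lysates in Etv1 (-1.61 and -1.77 against -2.01 and -2.07), Isl1 and Runx1, and below them in Tlx3 and Maf, which were not called.

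In the dorsal spinal cord, 8 members had enough mRNA reads to test and 1, Maf, fell after SNI. None rose, among 14723 genes of which 1.96% fell and 2.09% rose. Maf mRNA was 91.5 and 87.7 CPM in sham and 82.5 and 79.3 CPM in SNI pools (-0.14, SE 0.0373, edgeR adjusted p = 0.0156). Without spinal cord sham replicate 1 or spinal cord SNI replicate 2 the difference was -0.11 in each case and no longer called, and DESeq2 called no member. The median of the 8 was -0.07, against 0.00 for all genes.

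Etv1 in the cord was 41.9 and 42.1 CPM in sham and 38.8 and 36.0 CPM in SNI pools (-0.16, SE 0.0517, adjusted p = 0.0655). It was called lower with the replicate block (-0.16) and when both tissues shared a fit (-0.16). Tlx3 (13.4 and 13.6 against 13.3 and 12.6 CPM) and Prrxl1 (27.8 and 28.2 against 27.4 and 27.8 CPM) were not called. Their log2 fold changes were -0.05 (95% interval -0.21 to 0.12) and -0.02 (interval -0.13 to 0.10). Both are known from dorsal horn neurons, and which other members these neurons make was not examined. Of 20 factors of dorsal horn interneurons, 16 were tested and 1 fell, Zic1 (-0.12). Pou4f1 (-0.05), Shox2 (-0.04) and Runx1 (-0.08) were not called. Isl1, which motor neurons also make, was 2.39 and 2.32 CPM in sham and 2.33 and 2.03 CPM in SNI pools (-0.11, adjusted p = 0.847). In the same libraries 4 of the 5 motor neuron genes tested fell, with a summed level of 95.9 to 97.2 CPM in sham and 61.6 to 62.1 CPM in SNI pools, and their part in the Isl1 value was not tested.

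Prdm12 and Runx3 stayed under the read minimum in cord mRNA. Prdm12 had 10 and 5 reads in the sham libraries and 3 and 29 in the SNI libraries. Runx3 had 2 and 6 reads in sham and 2 and 2 in SNI libraries. Spinal cord SNI replicate 2 also had more reads of 2 nociceptor genes, a pair chosen after its values were seen. They were Scn10a (63 reads, against 10 in the other SNI library and 24 and 27 in sham) and Mrgprd (19, against 2 and 8 and 9). Isl1, also more abundant in the DRG, was lower in spinal cord SNI replicate 2 than in the other SNI library. Runx3 had 2 reads in each, too few to compare. The summed level of all listed nociceptor genes was 495 to 519 CPM in SNI and 488 to 500 CPM in sham cord mRNA libraries. What set this library apart was not tested.

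In cord footprints 5 members were tested and none was called by edgeR, with none at an unadjusted p under 0.05 and none by DESeq2. Of 12018 genes, 1.21% were higher and 1.03% lower. Maf was 71.2 and 75.7 CPM in sham and 64.2 and 72.5 CPM in SNI pools (-0.10, 95% interval -0.23 to 0.03), and Etv1 5.50 and 7.42 against 8.06 and 6.67 CPM (0.18, interval -0.23 to 0.58). The footprint groups overlapped in these 5 members, as in 55.3% of all genes tested, and in the 5 with too few reads to test. The latter were Runx1, Isl1, Shox2, Prdm12 and Runx3.

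Cord TE was called for none of the 5 members tested (edgeR, none at an unadjusted p under 0.05 and none by DESeq2), where 0.169% of 11865 genes were higher and 0.0843% lower. Etv1 had the largest difference, with log2 TE of -2.91 and -2.50 in sham and -2.26 and -2.42 in SNI lysates (0.34, 95% interval -0.06 to 0.73, adjusted p = 0.783). It rested on 120 footprint reads in the 2 sham libraries. Maf was bounded more closely (0.04, interval -0.11 to 0.19).

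**Figure D5:**
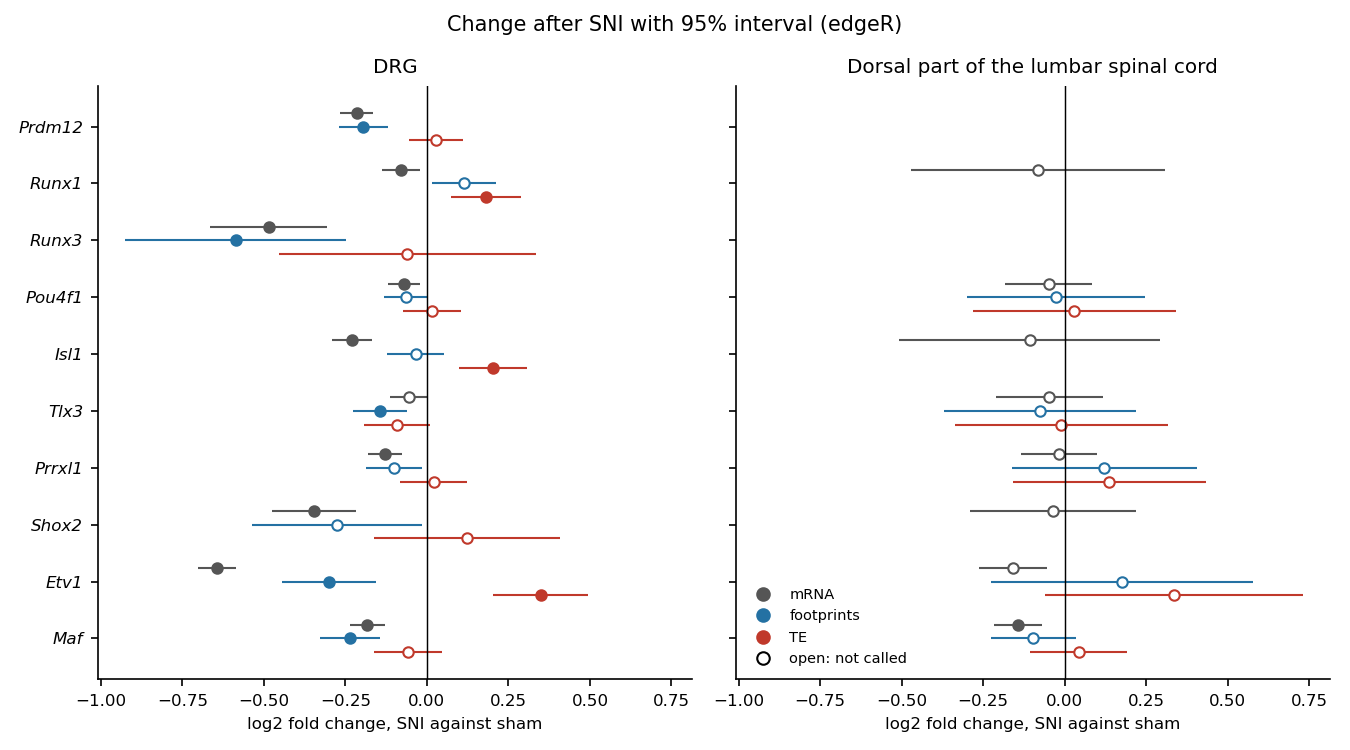
Log2 fold change after SNI with its 95% interval from edgeR for mRNA (grey), footprints (blue) and TE (red) of each member, DRG on the left and cord on the right, filled where called. In the DRG the mRNA values lie left of 0 (Etv1 at -0.64) and the TE of Etv1, Isl1 and Runx1 lies right of it, and in the cord only Maf mRNA (-0.14) is filled.

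Etv1 was the only member whose mRNA response to SNI differed between the tissues by the test of the interaction. Of 16716 genes tested, 6.35% had a higher and 7.23% a lower response in the DRG than in the cord. The Etv1 response was lower in the DRG by 0.48 on the log2 scale (SE 0.0579, edgeR adjusted p = 1.5e-08). Prdm12 had a difference of -1.40 (SE 0.517, adjusted p = 0.0594), with 29 reads in 1 cord SNI library and 3 in the other. It was -2.30 and called without spinal cord SNI replicate 1, and 1.01 without spinal cord SNI replicate 2. For Maf, the member that fell in both tissues, the difference was -0.03 (95% interval -0.12 to 0.06). Runx3 (SE 0.906), Isl1 (SE 0.190), Runx1 (SE 0.185) and Shox2 (-0.30, SE 0.144) were bounded less closely than Etv1.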

How the data were processed

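Pools of mouse DRG and dorsal lumbar cord were profiled by ribosome footprinting (28 to 32 nt) and poly(A)+ mRNA-seq. Per the labels and methods, the authors used Bowtie 1.1.2 to discard rRNA and tRNA, then STAR 2.5.2b to map to GRCm38.p5, counted reads per gene with HTSeq and deposited raw counts, RPKM values and, per lysate, the ratio of footprint to mRNA RPKM (TE). The HTSeq strand setting is not given in the sources used here.

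Counts were tested with edgeR 4.0.16 (R 4.3.3, quasi-likelihood, TMM, genes with at least 128 reads in total per assay, Benjamini-Hochberg over all genes tested). TE was tested as the interaction with assay, with a term per lysate. Log2 TE levels had 0.5 reads added. Per-kilobase levels used the exonic length deposited by the authors for mRNA and the longest GENCODE coding sequence for footprints. Deposited RPKM values were read only in the unit check, and the deposited ratio, with limma 3.58.1, served as an alternative. DESeq2 1.42.0, other filters and scalings, a fixed spread, the replicate block and leaving out each lysate were further alternatives. Some of the edgeR fits were also run on simulated counts with the same spread for every gene. That spread was not the one estimated in these data, so the simulation does not vouch for the calls.

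The members and lists were chosen with earlier results of these data known. All 10 members are named, and of other lists at most 3 called genes per direction, those that changed most; 1 such gene is not reported here. The p-values rest on the spread between 2 pools, and in the DRG mRNA and DRG TE fits its common estimate sat at its floor. Counting intervals (95%, exact) cover counting error only. The 2 pools are separate samples per the labels. Comparisons that use the same sham DRG libraries are not independent.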

Additional observations from a re-analysis of the deposited data

Results flagged for a closer look

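The mRNA response of Etv1 to SNI differed between DRG and spinal cord by the test of the interaction (log2 difference -0.48, edgeR adjusted p = 1.5e-08). Its log2 fold change was -0.64 in the DRG and -0.16 in the cord. The difference kept its call when any 1 library was left out (-0.53 to -0.42).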

How the results depend on the processing

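Counts of members called higher or lower were recomputed under each alternative, and 210 of 248 such counts stayed within 1.5 times. In DRG mRNA the 9 lower members became 1 with the biological coefficient of variation fixed at 0.1 and 0 in a test against a 1.5-fold change. In DRG footprints the 5 lower members became 2 with DESeq2, 3 with the read minimum applied to every library, 0 with the fixed spread and 0 against 1.5-fold, and 2 to 5 lower with 0 to 1 higher when 1 lysate was left out. One member, Runx1, was higher with library sizes alone (1) and with the replicate block (1). In DRG TE the 3 higher members became 0 with DESeq2, 0 with the fixed spread, 0 against 1.5-fold and 0 with limma on the deposited ratios, and 1 in each leave-out. In cord mRNA the 1 lower member became 0 with DESeq2, 0 with the fixed spread, 0 against 1.5-fold, 0 to 1 in the leave-outs, and 2 with the replicate block and 2 with both tissues in one fit. Between sham tissues, the read minimum in every library left 5 members higher in mRNA, 1 in footprints, and 0 higher and 1 lower in TE. The other members had too few reads in a cord library to be tested under it, so these are not lost calls. Runx3 in DRG footprints was likewise not tested under it. TE between tissues had 0 higher and 1 lower member with the fixed spread and against 1.5-fold, and 0 higher with limma. For the interaction in mRNA the 1 lower member became 2 without a filter, 0 with the fixed spread, 0 against 1.5-fold and 1 to 2 in the leave-outs. Over all genes, DESeq2 called 928 higher and 1176 lower in DRG mRNA (edgeR 2308 and 2467), 349 and 376 in DRG footprints (1095 and 1080), 56 and 30 in DRG TE (536 and 408), 39 and 18 in cord mRNA (308 and 289), 67 and 24 in cord footprints (145 and 124), 961 and 1409 in sham TE (2552 and 2824) and 358 and 552 in the interaction (1061 and 1208). limma on the deposited ratios called 0 and 1 in DRG TE, and the fixed spread left 186 and 81 in DRG mRNA, 149 and 45 in DRG footprints and 7 and 3 in cord mRNA. The cause of these differences was not tested. Of single called members, 400 refits kept the call and 85 lost it, none with a changed sign. Of 556 refits of members that were not called, 52 changed sign, 7 were called and none did both. The replicate numbers share no stated batch, and deviations of same-numbered pools correlated at 0.05 in DRG mRNA, 0.19 in DRG footprints, 0.00 in cord mRNA and -0.03 in cord footprints. The replicate block changed no other count of members by over 1.5 times. Depth limits Prdm12, Runx3, Runx1, Isl1 and Shox2 in the cord, where the footprint reads were too few to test.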
